A study of Sus scrofa with 4 samples.

Results

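The mRNAs of 10 genes for secreted angiogenic factors, angiopoietin-like proteins and the transcription factor HIF1A were followed through adipogenic differentiation of porcine subcutaneous preadipocytes. The genes were chosen by name among the protein-coding genes of the deposited values, and each of VEGFA, VEGFB, VEGFC, PGF, ANGPT1, ANGPTL2, ANGPTL4, FGF2, HGF and HIF1A was listed, so that they are 10 of 16192 protein-coding genes and of 31567 features. The cells came from subcutaneous fat of 3 male Chinese Erhualian piglets that were 5 days old, with collagenase and centrifugation but no sort by a marker described, and all groups were grown in the same serum-containing medium. The groups are D0, confluent cells before any hormone was given, D2, after 2 days of dexamethasone, 3-isobutyl-1-methylxanthine and insulin, D4, after a further 2 days of insulin alone, and D8, after 4 more days in medium without added hormones. For each stage the RNA of the 3 piglets was mixed in equal parts and made into 1 library, so that there are no replicates, no test between stages is given, and the stage and its library cannot be told apart.

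Growing fat tissue needs new capillaries, and preadipocytes and adipocytes are known to secrete many of the factors that act on the endothelial cells of those vessels. The VEGF ligands bind receptor tyrosine kinases with neuropilins as co-receptors, VEGFA being the main driver of vessel sprouting and a classical target of the oxygen-regulated factor HIF1A. The angiopoietins act through the receptor TEK, whereas angiopoietin-like proteins do not bind it, and ANGPTL4 is best known as an inhibitor of lipoprotein lipase (LPL), the enzyme that frees fatty acids from circulating triglycerides.

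Expression is given as FPKM, the fragments on a gene scaled to the length of the gene and to all fragments counted in the library, so that levels can be compared between genes. Library depth lay between 54128151 fragments at D8 and 75387428 at D0. An mRNA was taken as reliably expressed when 3 or more of the 4 libraries reached 1 FPKM, which 9191 mRNAs and 7 of the 10 genes did. VEGFC, ANGPT1 and HGF did not. A gene is said to have risen or fallen only when it was reliably expressed and its ratio on log2(FPKM + 0.01) was at least 2-fold, and other differences are given as values. Intervals are 95% intervals from the numbers of reads, without the pseudocount, and cover counting error only. The variation between piglets and between library preparations is not in them. The comparisons of D2, D4 and D8 with D0 share the D0 library, and are set side by side without an overlap being counted.

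The culture was checked by the markers of 5 cell types. All 6 reliably expressed adipocyte markers of 8 rose at D2, D4 and D8 against D0, where 6.67%, 10.4% and 3.60% of all mRNAs did. The summed level of the list went from 122 FPKM at D0 to 2066 at D8, of which FABP4 was 1557. From D4 to D8, 5 of these 6 were lower and 3 fell (median log2 ratio −0.91), where 10.1% of all mRNAs fell. ANGPTL2 and ANGPTL4 fell in the same comparison. In contrast, FABP4 was higher at D8 than at D4 (853.0 FPKM). CIDEC and LEP, not reliably expressed and named here after their values were seen, were also higher. CIDEC went from 5.01 FPKM at D4 to 54.6 at D8, and LEP from 0.0269 to 0.314. Endothelial markers were low, with a summed level of 6.84 to 9.5 FPKM over 10 listed genes of 12, of which 2 were reliably expressed. These were PECAM1, with 2.56, 1.14, 1.7 and 1.87 FPKM at D0, D2, D4 and D8, and EGFL7, with 1.64, 5.18, 6.68 and 3.11 FPKM. ERG, with 3.72, 0.981, 0.85 and 1.7 FPKM, was highest at D0 as VEGFA and HIF1A were, whereas EGFL7 was highest at D2 and D4 as ANGPTL2 and ANGPTL4 were. EMCN, CLDN5 and ESAM did not exceed 0.222 FPKM. The part of such cells in the levels of the 10 genes was not tested. The endothelial cadherin gene CDH5 was at 0 in 3 libraries and at 0.045 FPKM at D4, and von Willebrand factor (VWF) was at 0 in 3 libraries and at 0.0137 FPKM at D0. Macrophage and leukocyte markers summed to 3.82 to 9.12 FPKM over 7 genes, of which 2 were reliably expressed. CD14 had 3.14, 5.64, 7.54 and 2.78 FPKM at D0, D2, D4 and D8, higher at D2 and D4 as ANGPTL2 and ANGPTL4 were. CD163 had 0.27, 1.42, 1.01 and 1.38 FPKM and was lowest at D0. The part of leukocytes in the levels of ANGPTL2 and ANGPTL4 was not tested. Preadipocyte and fibroblast markers summed to between 3116 FPKM (D0) and 5680 FPKM (D4), the collagen gene COL1A2 being the most abundant. Of the 8 reliably expressed ones, 3 rose at D2 against D0, where 6.67% of all mRNAs did. From D4 to D8, 3 of them fell, where 10.1% of all mRNAs did. PDGFRA had 75.8, 189.0, 149.0 and 60.8 FPKM and LUM had 32.6, 128.0, 186.0 and 77.0 FPKM at D0, D2, D4 and D8. Both were higher at D2 and D4, as ANGPTL2 and ANGPTL4 were. Other markers of the list took other courses. COL3A1 had 491.0, 1286, 2058 and 1624 FPKM and stayed high at D8. THY1, with 105.0, 101.0, 88.0 and 78.8 FPKM, was highest at D0. The part of these cells in the levels of ANGPTL2 and ANGPTL4 was not tested. In such bulk RNA, fewer cells of a type and less RNA per cell cannot be told apart.

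Between D0 and D2, ANGPTL2 and ANGPTL4 rose and VEGFA, PGF and HIF1A fell. Among all reliably expressed mRNAs, 6.67% rose and 10.1% fell, and the median log2 ratio was −0.03. Between D2 and D4, only VEGFB of the 7 rose, where 4.24% of all mRNAs did, and none fell, where 0.838% did. Between D4 and D8, ANGPTL2 and ANGPTL4 fell, where 10.1% of mRNAs fell, and none of the 7 rose, where 4.43% did. Scaling each library by the median ratio of the mRNAs in place of all fragments raised every log2 ratio of D8 to D4 by 0.21, and PGF then also reached 2-fold upwards (1 up and 2 down of 7).

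**Figure D1:**
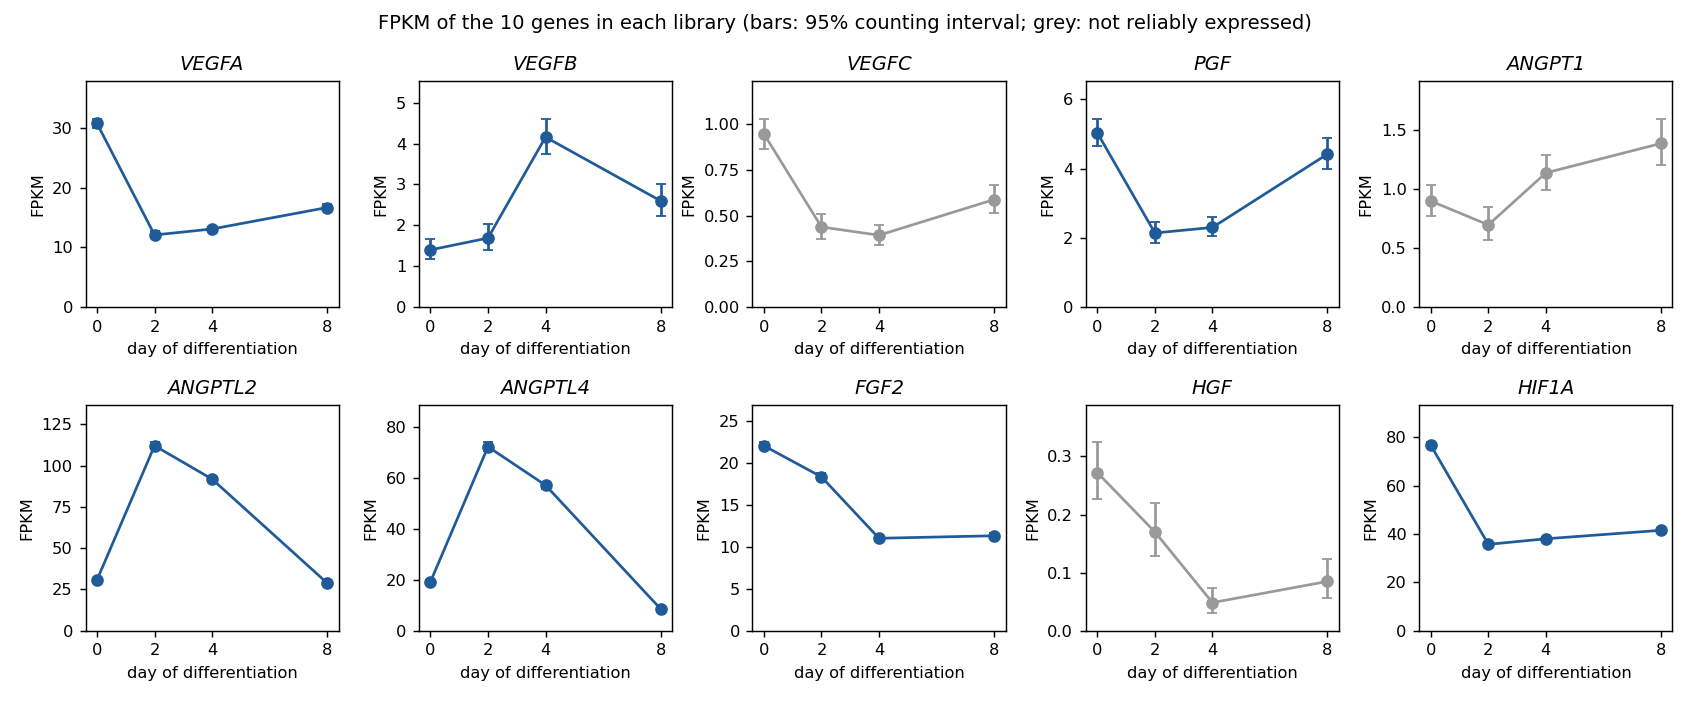
FPKM (vertical axis, from 0, a scale per gene) of the 10 genes in the D0, D2, D4 and D8 libraries, 1 library per stage, with bars for the 95% counting interval. ANGPTL2 and ANGPTL4 peak at D2, VEGFA and HIF1A are highest at D0, and HGF lies below 0.3 FPKM throughout.

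Against D0, VEGFB, ANGPTL2 and ANGPTL4 were higher by at least 2-fold at D4, where 10.4% of mRNAs were, and VEGFA, PGF, FGF2 and HIF1A were lower, where 8.81% were. At D8, only ANGPTL4 was lower by at least 2-fold than at D0, where 3.68% of mRNAs were, and none of the 7 was higher, where 3.60% were. With median-ratio scaling, which raises all log2 ratios of D8 to D0 by 0.16, VEGFB also passed 2-fold (1 up and 1 down of 7). The falls of FGF2 and HIF1A at D4 were at the edge of the 2-fold rule, with FPKM ratios of 0.498 and 0.496, and were no longer called when libraries were scaled to the summed FPKM of protein-coding genes (3 up and 2 down of 7) or with a pseudocount of 1. The fall of FGF2 was also lost with a pseudocount of 0.1 (3 up and 3 down).

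**Figure D2:**
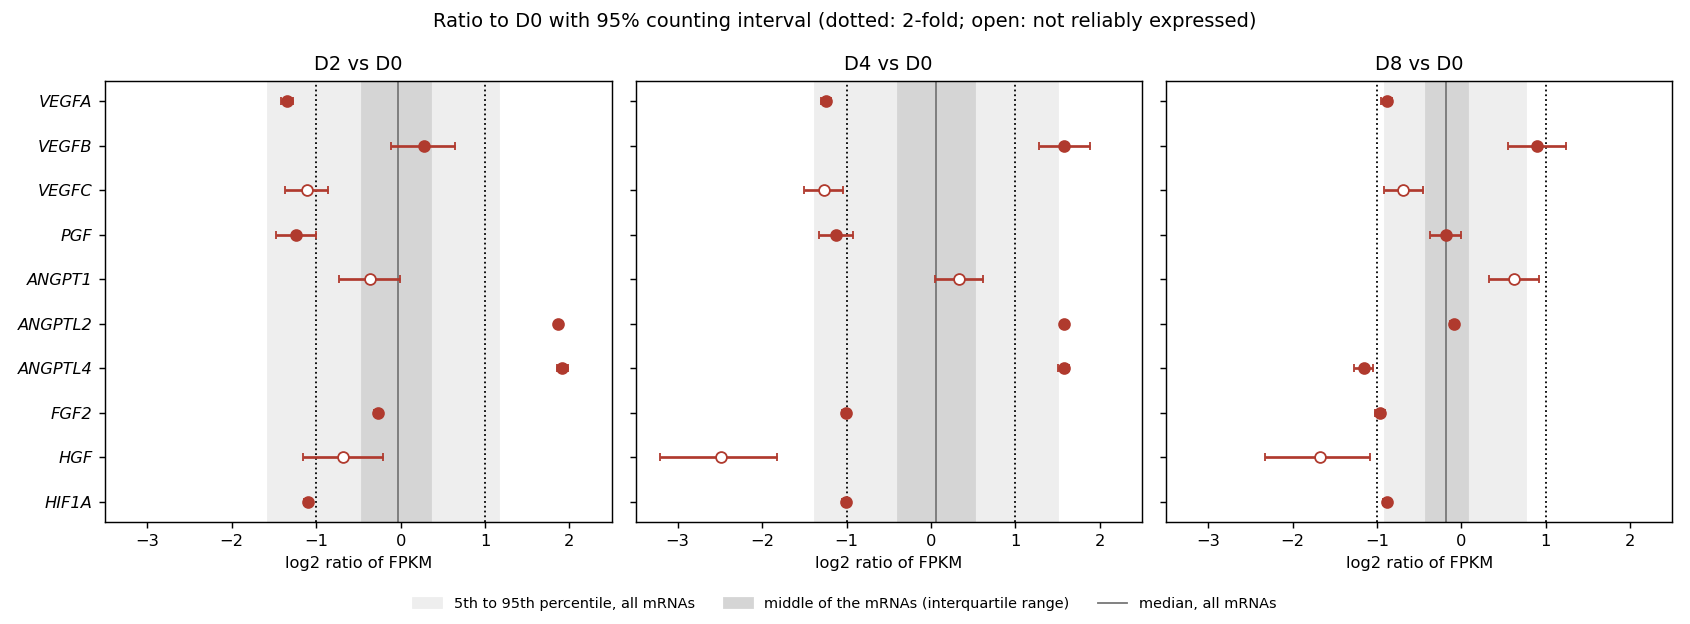
Log2 ratios of FPKM to D0 (horizontal axis, no pseudocount) of the 10 genes at D2, D4 and D8, with 95% counting intervals, against the spread of all reliably expressed mRNAs in grey. ANGPTL2 and ANGPTL4 lie to the right of the 95th percentile of mRNAs at D2 (log2 ratio 1.17) and D4 (1.5). VEGFB lies to the right of it at D4 and at D8 (0.76). At D8, ANGPTL4, FGF2 and HGF lie to the left of the 5th percentile (−0.91), as HGF does at D4 (−1.37).

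Among the VEGF ligands, VEGFA (chromosome 7, 38746393 to 38762282, plus strand, on the deposited coordinates of the pig genome Sscrofa11.1) was the most abundant at every stage. Its level was 30.8, 12.1, 13.1 and 16.7 FPKM at D0, D2, D4 and D8, from 7443, 2136, 3113 and 2897 reads. The D0 library was thus the highest and the others formed a lower group, with D8 at its top. The log2 ratio to D0 was −1.35 (−1.42 to −1.28) at D2, −1.24 (−1.3 to −1.18) at D4 and −0.88 (−0.95 to −0.82) at D8. The fall at D2 and D4 passed 2-fold and the D8 value, with 0.542 of the D0 level, did not. VEGFA stood at percentile 89.4 of all protein-coding genes at D0 and at 78.6 at D2.

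PGF (chromosome 7, 98149510 to 98162784, minus strand), placental growth factor, binds the receptor FLT1 as VEGFB does. Its level was 5.03 FPKM at D0 against 2.14 at D2, 2.3 at D4 and 4.42 at D8, from 622, 193, 281 and 392 reads. PGF was low at D2 and D4 and close to its starting level at D8. The log2 ratio to D0 was −1.23 (−1.47 to −1.0) at D2, −1.12 (−1.33 to −0.92) at D4 and −0.19 (−0.37 to 0.0) at D8. From D4 to D8 the log2 ratio was 0.94 (0.71 to 1.16), just under 2-fold. With a pseudocount of 1 the falls of PGF at D2 and D4 no longer passed 2-fold.

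VEGFB (chromosome 2, 7872873 to 7876149, minus strand), a ligand linked to fatty acid uptake by endothelium, took another course. Its level was 1.4 FPKM at D0, then 1.69 at D2, 4.16 at D4 and 2.6 at D8, from 126, 111, 370 and 168 reads. The highest value was therefore at D4, in the library where VEGFA and PGF were still low. From D2 to D4 VEGFB rose with a log2 ratio of 1.3 (0.99 to 1.62), and the D4 level was 2.98 times that at D0 (log2 ratio 1.57, 1.28 to 1.88). At D2 the log2 ratio to D0 was 0.27 (−0.11 to 0.65), an interval that includes no difference, and at D8 it was 0.89 (0.55 to 1.24). With a pseudocount of 1, the rise from D2 to D4 was under 2-fold. TRPT1 overlaps 122 bases of VEGFB on the opposite strand, and had 2.76, 5.77, 3.96 and 3.3 FPKM at D0, D2, D4 and D8, with its highest value at a stage other than that of VEGFB.

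VEGFC (chromosome 15, 39037764 to 39136234, minus strand), the ligand that drives the growth of lymphatic vessels, stayed below 1 FPKM. It had 0.947, 0.438, 0.393 and 0.588 FPKM at D0, D2, D4 and D8, from 516, 174, 211 and 230 reads. As for VEGFA, D0 was highest and D8 next. The log2 ratio to D0 was −1.1 (−1.37 to −0.86) at D2 and −0.68 at D8. The remaining listed ligand, VEGFD, was at or below 0.169 FPKM in every library.

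Because FPKM is per length, the ligands can be added up. The 5 listed ligands summed to 38.4 FPKM at D0 against 16.6 at D2, 20.0 at D4 and 24.4 at D8. VEGFA made up 80.3%, 73.3%, 65.5% and 68.6% of that sum. The share of VEGFB was 3.64%, 10.2%, 20.9% and 10.7%, and that of PGF 13.1%, 12.9%, 11.5% and 18.1%. The ligand pool at D4 thus held the largest part of VEGFB and the smallest of VEGFA. The level of VEGFA was 22.1 times that of VEGFB at D0 (18.5 to 26.5), 7.18 times at D2 (5.93 to 8.77), 3.14 times at D4 (2.82 to 3.51) and 6.44 times at D8 (5.51 to 7.57). Each of these ratios is taken within a library and does not depend on how libraries are scaled.

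**Figure D3:**
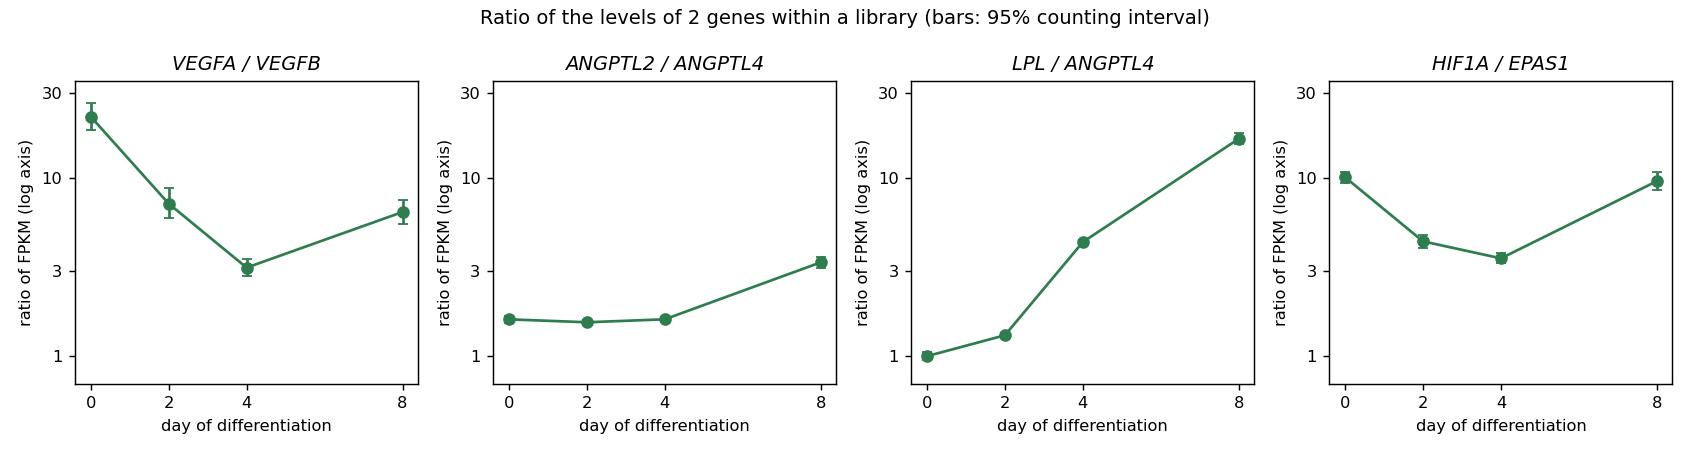
Ratios of the levels (FPKM) of pairs of genes within each library at D0, D2, D4 and D8, on a log axis, with 95% counting intervals. VEGFA over VEGFB is lowest at D4 (3.14), and LPL over ANGPTL4 climbs from 1.0 at D0 to 16.6 at D8.

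Of the 5 genes for VEGF receptors and co-receptors, the signalling receptors were near 0 in these cells. FLT1 was at 0.112 FPKM at D0 and below 0.05 later, KDR did not exceed 0.0182 FPKM, and FLT4 was represented by 1 read in the 4 libraries. The co-receptors, which also serve semaphorins, were expressed. NRP1 had 14.1, 31.3, 37.8 and 17.0 FPKM at D0, D2, D4 and D8, and rose at D2 (log2 ratio 1.15) where VEGFA fell. From D4 to D8 the log2 ratio of NRP1 was −1.15, which was under 2-fold with median-ratio scaling. NRP2 had 7.25, 6.43, 5.32 and 4.41 FPKM, and did not pass 2-fold in any of the 5 comparisons.

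The angiopoietin ANGPT1 (chromosome 4, 29925203 to 30233434, plus strand), the ligand that activates TEK and stabilises vessels, was a low transcript. It had 0.901 FPKM at D0, then 0.698 at D2, 1.14 at D4 and 1.39 at D8, from 184, 104, 229 and 204 reads. D8 was highest and D2 lowest, the reverse of what was seen for ANGPTL4. The log2 ratio of D8 to D0 was 0.62 (0.33 to 0.92), a ratio of 1.54. ANGPT2, the context-dependent antagonist, did not exceed 0.0629 FPKM. ANGPT4 had 0.0202 FPKM (10 reads) at D0, 0.136 at D2, 0.575 at D4 (281 reads) and 0.329 at D8. The receptor gene TEK was at 0.0576 FPKM or lower.

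The 2 angiopoietin-like genes were the most abundant of the 10 at D2 and D4. ANGPTL2 (chromosome 1, 267639636 to 267672918, minus strand), a secreted factor of fat tissue that has been tied to inflammation, had 30.8, 112.0, 91.8 and 28.9 FPKM at D0, D2, D4 and D8, from 8476, 22513, 24932 and 5712 reads. D2 and D4 were high and D0 and D8 low, with no value in between. ANGPTL2 rose at D2 with a log2 ratio of 1.86 (1.83 to 1.9) and fell from D4 to D8 with a log2 ratio of −1.67 (−1.71 to −1.63). The D8 level was 0.939 of that at D0, a log2 ratio of −0.09 that turned to 0.06 with median-ratio scaling, so that its direction depends on the scaling. RALGPS1, which spans the whole of ANGPTL2 on the opposite strand, stayed at or below 0.292 FPKM.

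ANGPTL4 (chromosome 2, 70905767 to 70912892, minus strand) had 19.2 FPKM at D0 against 72.2 at D2, 57.1 at D4 and 8.59 at D8, from 2627, 7222, 7719 and 845 reads. It shared the high D2 and D4 libraries with ANGPTL2 but went below its starting level at D8. The rise at D2 had a log2 ratio of 1.91 (1.85 to 1.98), a ratio of 3.77. From D4 to D8 the log2 ratio was −2.73 (−2.84 to −2.63), which left 0.15 of the D4 level, and among all reliably expressed mRNAs 0.1% had a lower value in that comparison. Against D0 the D8 log2 ratio was −1.16 (−1.27 to −1.05), and 2.2% of mRNAs had a lower value.

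The level of ANGPTL2 over that of ANGPTL4 was 1.61 at D0, 1.55 at D2 and 1.61 at D4. At D8 it was 3.36 (3.13 to 3.62), so that the pair kept nearly the same proportion up to D4 and parted afterwards. Of the other 4 listed members of the family, none exceeded 0.404 FPKM in any library. ANGPTL2 and ANGPTL4 therefore accounted for nearly all of the summed family level, which was 50.6 FPKM at D0, then 185.0 at D2, 149.0 at D4 and 38.1 at D8.

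LPL, the enzyme that ANGPTL4 inhibits, had 19.2, 94.7, 250.0 and 142.0 FPKM at D0, D2, D4 and D8. The mRNAs of enzyme and inhibitor were at the same level at D0, with a ratio of LPL to ANGPTL4 of 1.0 (0.955 to 1.05). The proteins were not measured. The mRNA ratio was 1.31 (1.27 to 1.35) at D2, 4.37 (4.27 to 4.48) at D4 and 16.6 (15.5 to 17.8) at D8, with no overlap of the intervals. PPARG, a nuclear receptor for which ANGPTL4 is a known target gene, had 2.95, 26.4, 51.9 and 25.8 FPKM, and so was higher at D8 than at D0 where ANGPTL4 was lower. Of the 8 reliably expressed genes of the LPL and PPAR list, 4 rose and 1 fell at D2 against D0, with a median log2 ratio of 0.82. Among all mRNAs, 6.67% rose and 10.1% fell at D2, with a median of −0.03. From D4 to D8, 4 of the list fell and none rose (median −0.91), and 2 fell with median-ratio scaling. Of all mRNAs, 10.1% fell and 4.43% rose from D4 to D8, with a median of −0.21. The gene that fell at D2 was PCSK6, a proprotein convertase that can cleave LPL, with 9.93, 4.33, 2.17 and 2.75 FPKM.

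The smooth muscle and pericyte markers took several courses. Their summed level over 9 genes was 2940 FPKM at D0 against 431 at D2, 334 at D4 and 2801 at D8. Most of it came from the actin gene ACTA2 with 2907, 324, 225 and 2762 FPKM. CSPG4, named here after its values were seen, was low at D2 and D4 as ACTA2 was, with 3.85, 0.338, 0.516 and 2.72 FPKM. In contrast, ABCC9 had 10.3, 73.3, 68.6 and 15.4 FPKM and PDGFRB had 12.4, 20.9, 28.8 and 12.0 FPKM, both higher at D2 and D4 as ANGPTL2 and ANGPTL4 were, and KCNJ8 was likewise lowest at D0 (3.6 FPKM). Of the 9 genes, 5 were reliably expressed and none was at 0. The median log2 ratio of the 5 was 0.75 at D2 against D0 and −0.54 at D8 against D4. The medians of all mRNAs were −0.03 and −0.21. The part of smooth muscle cells and pericytes in the levels of ANGPTL2 and ANGPTL4 was not tested.

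FGF2 (chromosome 8, 101278877 to 101344084, minus strand), a growth factor for endothelial cells and for preadipocytes themselves, had 22.0 FPKM at D0, then 18.3 at D2, 11.0 at D4 and 11.3 at D8, from 11085, 6736, 5443 and 4074 reads. D0 was highest and D2 somewhat lower, with the greater part of the difference between D2 and D4. The log2 ratio of D4 to D2 was −0.74 (−0.79 to −0.69), and 1.7% of mRNAs had a lower value in that comparison. At D4, FGF2 was at 0.598 of its D2 level and 0.498 of its D0 level, and at D8 it was at 0.512 of its D0 level. Between D4 and D8 the log2 ratio was 0.04 (−0.02 to 0.1), and −0.01 with protein-coding scaling. NUDT6 overlaps FGF2 by 23884 bases on the opposite strand and had 0.475, 0.773, 0.747 and 0.514 FPKM at D0, D2, D4 and D8, which is low beside FGF2.

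HGF (chromosome 9, 98437771 to 98513573, plus strand), hepatocyte growth factor, was the lowest of the 10 at every stage. It had 0.272, 0.17, 0.0485 and 0.0849 FPKM at D0, D2, D4 and D8, from 125, 57, 22 and 28 reads. Against D0 the log2 ratio was −2.27 at D4 and −1.57 at D8, with counting intervals of −3.21 to −1.82 and −2.33 to −1.08. With a pseudocount of 0.1 these became −1.32 and −1.01, and with a pseudocount of 1 they became −0.28 and −0.23, so that their size rests on the pseudocount. Its receptor gene MET, named here after its values were seen, had 1.99, 0.275, 0.542 and 0.819 FPKM.

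Of the 17 genes of the list of FGF2 and HGF with their receptors and partners, 9 were reliably expressed. Against D0, 1 rose and 2 fell at D2 (median log2 ratio 0.19), 3 rose and 3 fell at D4, and none rose and 3 fell at D8 (median −0.39, where that of all mRNAs was −0.18). The shares of all mRNAs were 6.67% up and 10.1% down at D2, and 10.4% up and 8.81% down at D4. At D8 they were 3.60% up and 3.68% down. FGFR2 had 14.3, 33.3, 37.6 and 10.9 FPKM and FGFR1 had 7.28, 14.0, 23.1 and 6.28 FPKM. These FGF receptor genes, which are not all of the listed ones, were highest at D4, where FGF2 was already at its lower level. The urokinase gene PLAU, whose product can activate HGF, had 84.4, 28.4, 32.8 and 35.5 FPKM, and its receptor gene PLAUR had 60.6, 15.9, 15.6 and 25.0 FPKM. With median-ratio scaling, 1 rose and 2 fell at D8 against D0. The gene that then rose was SPINT2, an inhibitor of HGF activation with 0.939, 1.33, 2.54 and 1.86 FPKM.

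HIF1A (chromosome 1, 190625436 to 190673926, plus strand), the oxygen-regulated subunit of hypoxia-inducible factor 1, was the most abundant of the 10 at D0 and D8. Its level was 76.6 FPKM at D0 against 35.7 at D2, 38.0 at D4 and 41.5 at D8, from 16517, 5619, 8084 and 6422 reads. As for VEGFA, D0 stood above the other stages, which lay close together. The log2 ratio to D0 was −1.1 (−1.14 to −1.06) at D2, −1.01 (−1.05 to −0.97) at D4 and −0.88 (−0.93 to −0.84) at D8. The fall at D2 passed 2-fold with the deposited scaling but not with protein-coding scaling. The activity of HIF1A is set largely by the stability of its protein, which was not measured.

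EPAS1, named here after its values were seen, encodes the other main oxygen-regulated subunit, and had 7.61 FPKM at D0, then 8.11 at D2, 10.7 at D4 and 4.32 at D8. HIF1A over EPAS1 was 10.1 (9.39 to 10.8) at D0, 4.41 at D2, 3.54 (3.33 to 3.77) at D4 and 9.6 (8.6 to 10.8) at D8. Of the 8 reliably expressed genes for HIF subunits and oxygen sensors, 1 rose and 2 fell at D2 against D0 (median log2 ratio −0.18). Among all mRNAs, 6.67% rose and 10.1% fell at D2 (median −0.03). The prolyl hydroxylase gene EGLN3, itself a known HIF target, rose with 0.618, 1.56, 1.43 and 3.13 FPKM at D0, D2, D4 and D8. ARNT2 fell at D2 together with HIF1A, with 2.59, 1.02, 1.64 and 1.27 FPKM, and the sensor gene EGLN1 had 11.2, 6.98, 9.31 and 11.3 FPKM. With a pseudocount of 1, none of the 8 rose and 1 fell at D2 against D0, so that the calls of EGLN3 and ARNT2 at D2 were lost.

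Other genes known to respond to hypoxia were compared with VEGFA and HIF1A. Of 22 reliably expressed ones of 23, 17 were lower and 5 higher at D2 than at D0, and the median log2 ratio was −0.36. Of these 22, 4 fell and 2 rose at D2, where 10.1% of all mRNAs fell and 6.67% rose and the median was −0.03. From D4 to D8, 17 were higher and 5 lower, with a median of 0.65, where that of all mRNAs was −0.21. In this comparison 6 rose and none fell, where 4.43% of all mRNAs rose and 10.1% fell. At D8 against D0 the median was 0.21, where that of all mRNAs was −0.18, and 17 were higher and 5 lower. Of the list, 1 rose and 1 fell, where 3.60% of all mRNAs rose and 3.68% fell. With median-ratio scaling, 2 rose and 0 fell at D8 against D0, and with a pseudocount of 1 none rose. VEGFA and HIF1A had −0.88 in that comparison, below the median of the list. SLC2A1, a glucose transporter, had 20.1, 3.46, 7.81 and 18.1 FPKM, and so was back near its D0 level at D8. The hexokinase gene HK2 had 13.9, 3.09, 6.11 and 9.71 FPKM, and PFKFB3, a regulator of glycolysis, had 1.56, 1.22, 1.24 and 3.19 FPKM. ADM, a vasodilator peptide gene, had 157.0, 96.4, 76.3 and 77.0 FPKM, and was the gene that fell at D8. DDIT4, which also responds to glucocorticoids, and CA12 rose at D2, with 129.0 and 393.0 FPKM for DDIT4 and 92.8 and 230.0 FPKM for CA12 at D0 and D2.

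**Figure D4:**
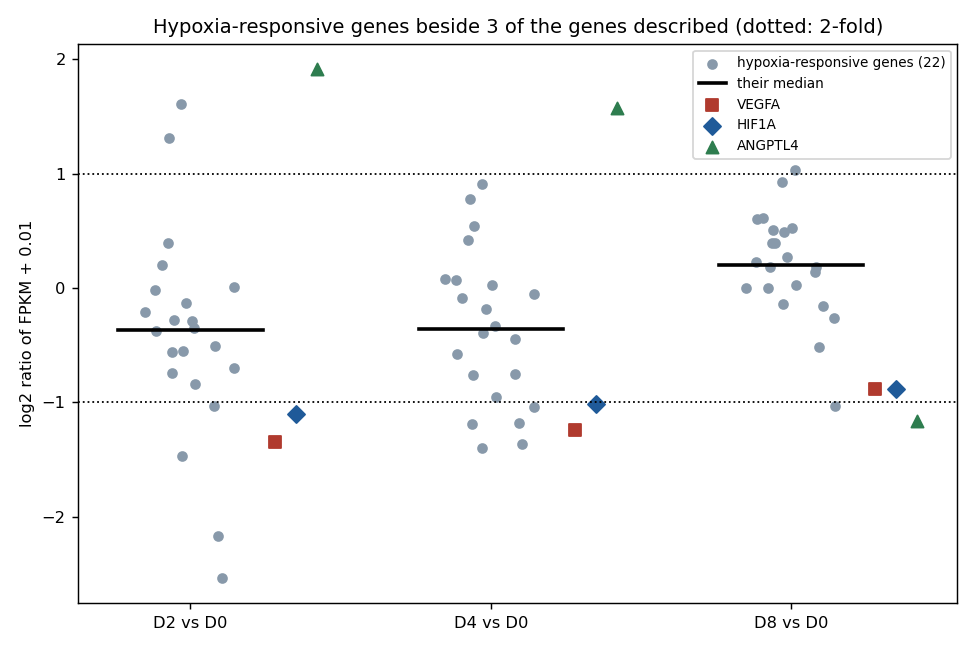
Log2 ratio of FPKM + 0.01 to D0 (vertical axis) of the reliably expressed hypoxia-responsive genes at D2, D4 and D8, 1 grey point per gene, with VEGFA, HIF1A and ANGPTL4 beside them. At D8 the median of the list is 0.21 and VEGFA and HIF1A are both at −0.88.

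Circular RNAs, which arise from back-splicing of exons, were listed within 3 of the 10 genes, VEGFA, HIF1A and VEGFC. They are counted by reads across the back-splice junction, and a value of 0 stands for fewer than 2 such reads. Within VEGFA, ssc_circ_0003732 (chromosome 7, 38750195 to 38754890) had 17 junction reads at D0, 2 at D2 and 0 at D4 and D8, and ssc_circ_0003733 (38753441 to 38754890) had 8 at D0 and 0 later. Per 1000 reads of the gene, this was 3.36 (2.17 to 4.96) at D0. At D2 the listed junction reads came to 0.936 per 1000. For D2, D4 and D8 no interval is given, since a 0 may stand for 1 read. The rates of D0 and of the later stages are therefore not compared. The circular and the whole-gene signal of VEGFA were thus both highest at D0.

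Within HIF1A, ssc_circ_0000412 (chromosome 1, 190648253 to 190649258) had 26, 4, 9 and 0 junction reads at D0, D2, D4 and D8. A second one from the same start, ssc_circ_0000413 (190648253 to 190654424), had 24, 5, 0 and 9 junction reads, and ssc_circ_0000414 (190672034 to 190672800) had 10, 5, 0 and 0. Summed per 1000 reads of HIF1A, there were 3.63 junction reads (2.77 to 4.68) at D0 and 2.49 (1.36 to 4.18) at D2, intervals that overlap. The listed junction reads came to 1.11 per 1000 at D4 and 1.4 at D8. For D4 and D8 no interval is given, since a 0 in these sums may stand for 1 read. The circular RNA within VEGFC, ssc_circ_0007465 (chromosome 15, 39043685 to 39057795), had 9 junction reads at D0 and 0 later.

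**Figure D5:**
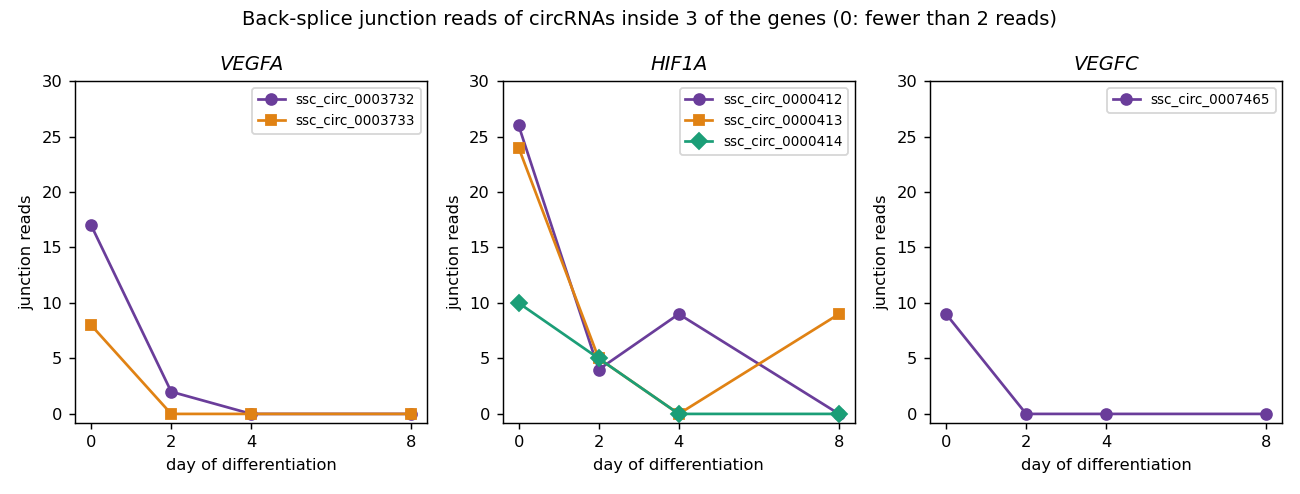
Back-splice junction reads (vertical axis) of the circular RNAs within VEGFA, HIF1A and VEGFC in the D0, D2, D4 and D8 libraries, where 0 stands for fewer than 2 reads. All 6 have their highest number at D0, from 8 to 26 reads.

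Noncoding transcripts on the opposite strand were listed within HIF1A and across the 5′ end of VEGFC. MSTRG.11725 and MSTRG.11724, antisense RNAs within HIF1A, had 51, 14, 6 and 47 reads and 21, 0, 2 and 23 reads at D0, D2, D4 and D8, so that both were higher at D0 and D8 than between. The pseudogene LOC106507611 in the same gene had 0, 5, 2 and 44 reads. These numbers are small beside the 5619 to 16517 reads of HIF1A. The libraries were strand-specific, but whether strand was used in counting is not stated, so that reads of overlapping genes may have been shared. The long noncoding RNA LOC106504420, named here after its values were seen, ends 24 bases before the start of VEGFA on the same strand (chromosome 7, 38717189 to 38746368). It had 3.31, 1.25, 1.07 and 1.65 FPKM, with D0 highest as for VEGFA.

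In the order of levels, HIF1A led at D0, followed by VEGFA and ANGPTL2, whose ratio of 1.0 (0.972 to 1.03) does not separate them. At D2 and D4 the order began with ANGPTL2, ANGPTL4 and HIF1A, and at D8 with HIF1A, ANGPTL2 and VEGFA. VEGFC and ANGPT1 could not be separated at D0 (ratio 1.05, 0.886 to 1.25), nor PGF and VEGFB at D2 (ratio 1.27, 0.998 to 1.61). ANGPTL4 dropped from the second place at D4 to the fifth at D8.

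The mRNAs with the most similar course were found by the distance between their 4 log2 values, each centred on its mean over the 4 libraries. For VEGFA these were MANSC1 at a distance of 0.0585 and RHOU at 0.0673, for HIF1A FBXW9 at 0.0565 and CCNYL1 at 0.0832, and for PGF TMEM119 at 0.0458 and ILK at 0.0869. FGF2 was closest to DUSP1 (0.133) and CALM2 (0.179), and ANGPTL2 to PCED1A (0.145) and PDE4B (0.149). The closest for VEGFB were PPP2R2A (0.244) and LOC110259374 (0.254), and for ANGPTL4 PDE7B and CRTAC1, both at 0.428. ANGPTL4 therefore had the most distant neighbours of the 7, and VEGFA, HIF1A and PGF the nearest. Among 9190 mRNAs, HIF1A was the 64th nearest to VEGFA, at a distance of 0.237, and ANGPTL2 the 23rd nearest to ANGPTL4, at 0.938. In the other direction ANGPTL4 was the 410th nearest to ANGPTL2, which has more mRNAs close to it. A course over 4 libraries leaves few ways to differ, and these distances describe the libraries alone.

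Genes known to restrain vessel growth were also listed, of which 11 of 14 were reliably expressed. Against D0, 2 rose and 2 fell at D2 (median log2 ratio 0.36), 3 rose and 2 fell at D4, and 1 rose and 2 fell at D8 (median −0.17, where that of all mRNAs was −0.18). Among all mRNAs, 6.67% rose and 10.1% fell at D2, and 10.4% rose and 8.81% fell at D4. At D8, 3.60% of all mRNAs rose and 3.68% fell. With a pseudocount of 1, 1 rose and 1 fell at D2, and 1 fell at D4. Thrombospondin 1 (THBS1) had 1689, 191.0, 212.0 and 621.0 FPKM at D0, D2, D4 and D8, and so fell at D2 in the same libraries as VEGFA. The matrix protein gene SPARC, the most abundant of the list on average, had 875.0, 1550, 1320 and 1424 FPKM. CXCL14 had 27.8, 154.0, 107.0 and 20.5 FPKM and ADAMTS9 had 3.01, 6.5, 12.3 and 2.68 FPKM, both high at D2 and D4 as ANGPTL2 and ANGPTL4 were. VASH1 fell, with 2.79, 1.04, 1.26 and 0.805 FPKM, and ADAMTS1 had 2.08, 3.8, 5.03 and 6.67 FPKM, the 1 gene of the list that was at least 2-fold above D0 at D8.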

How the data were processed

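RNA was sequenced from 4 libraries, 1 per stage, each a pool of 3 piglets. The authors aligned the reads to the pig genome (Sscrofa11.1) with HISAT2 2.0.5 and deposited FPKM for genes, and for circular RNAs, found with BWA-MEM and CIRI, SRPBM, a score of junction reads scaled to mapped reads. From the deposited FPKM alone, the library totals and then the smallest whole numbers of reads per gene were recovered with Python 3.11.15, numpy 2.4.6, pandas 2.3.3 and scipy 1.17.1. Library totals came from tRNA and miRNA genes whose length is their span, of which 92.9% to 94.6% per library gave whole reads. If true read numbers are multiples of those recovered, the intervals given are too wide. The steps were tested on simulated data. Ratios were taken on log2(FPKM + 0.01) in 5 comparisons, without a test. The members and 14 gene lists were chosen with earlier results of these data known. Genes named are the members, those of lists of 6 or fewer genes, the endothelial markers, the gene with the highest mean and the 2 with the largest rise and fall per list at D2 or D8 against D0, and the 2 nearest mRNAs of each reliably expressed member. Genes overlapping a member were added after their values were seen. Alternatives were pseudocounts of 0.1 and 1, no filter, FPKM of at least 1 in all 4 libraries, 2 other scalings and a ratio of 1.5. All 10 members matched the RefSeq table by symbol, start and end.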

Additional observations from a re-analysis of the deposited data

How the results depend on the processing

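Of the counts of members under the 7 alternatives, 59 stayed within 1.5 times the value given and 11 did not. The gene lists were recomputed only with a pseudocount of 1 and with median-ratio scaling. Their medians were judged by how far the log2 value moved, not by 1.5 times. Of these counts and medians of the lists, 315 were labelled as staying and 75 as moved. With a pseudocount of 1, 0 members rose from D2 to D4 (VEGFB lost) and 1 fell at D4 against D0 (VEGFA), where 3 rose, so that more rose than fell. Without the filter on low FPKM, 1 fell from D2 to D4 (HGF) and 2 fell at D8 against D0 (ANGPTL4 and HGF). With median-ratio scaling, 1 rose from D4 to D8 (PGF) and 1 at D8 against D0 (VEGFB). With protein-coding scaling, 2 fell at D4 against D0 (VEGFA and PGF) and again 3 rose. With a ratio of 1.5, 1 fell from D2 to D4 (FGF2), 1 rose from D4 to D8 (PGF), 1 rose at D8 against D0 (VEGFB) and 4 fell at D8 against D0. Among log2 ratios of single members, 52 of 200 moved beyond their counting interval. No paired analysis was possible because each stage is 1 library and no test was made. For the same reason no library could be left out. Depth limits HGF, ANGPT1 and VEGFB most, with as few as 22, 104 and 111 reads in a library.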
